A study of Mus musculus with 61 samples.

Results

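Liver tissue holds macrophages among its hepatocytes, and 30 genes of these macrophages were followed across the livers of 8 inbred mouse strains. The genes were taken by symbol from the 18754 genes of the deposited count table, of which 16165 had enough reads to be tested. All 30 were found and all 30 were tested. They comprised 7 genes of resident Kupffer cells (Clec4f, Vsig4, Timd4, Cd5l, Marco, Folr2 and Cd163), 14 genes shared by macrophages and other myeloid cells (Adgre1, Csf1r, C1qa, C1qb, C1qc, Cd68, Mrc1, Cd14, Fcgr1, Ctss, Tyrobp, Fcer1g, Lyz2 and Laptm5), and 9 genes of recruited or lipid-associated macrophages (Trem2, Gpnmb, Cd9, Cd63, Spp1, Itgax, Ccr2, Mmp12 and Lgals3).

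The strains are the founders of the Diversity Outbred stock, and every mouse had eaten a high-fat, high-sugar diet with 45% fat. The libraries were of B6 (n = 7), NZO (n = 8), AJ (n = 6), strain-129 (n = 8), NOD (n = 8), WSB (n = 8), PWK (n = 8) and Cast (n = 7), 60 in all. Strain is the only difference between the groups that the labels give; no group carries an engineered allele by its label, and neither sex nor age is stated. B6, NZO, AJ, strain-129 and NOD are classical laboratory strains, whereas WSB, PWK and Cast descend from wild-caught mice.

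Kupffer cells are the macrophages that line the liver sinusoids. They are seeded before birth, renew themselves in place, depend on signals through the receptor CSF1R and on the transcription factor PU.1, and clear bacteria, dying cells and modified lipoproteins through scavenger and complement receptors. In fatty liver, blood monocytes that carry CCR2 enter the tissue, and some become lipid-associated macrophages, which express Trem2, Gpnmb, Cd9 and Spp1 and gather around fat-laden or scarred areas.

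The libraries held between 19.98 and 69.2 M reads in genes. Levels below are CPM, counts per 1 M reads, after TMM normalisation, and 3 levels in a row are those of the lowest, the median and the highest library of a strain. Fold changes are log2 values from edgeR's quasi-likelihood test, and adjusted p-values are Benjamini-Hochberg values over all 16165 genes, with a threshold of 0.05. Unless a pair of strains is named, a strain is set against the unweighted mean of the other 7. A gene that passed the threshold is described as called, higher or lower. The labels do not say that each library came from a separate mouse, so the p-values measure the spread between these libraries only. RNA came from whole liver, so fewer macrophages in a sample and less RNA per macrophage cannot be told apart.

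Library 8 of NZO stood apart. Its mean correlation with the other NZO libraries was 0.934, its 7 tested neutrophil markers summed to 1952 CPM, against at most 15.4 CPM in any other library, and the acute phase gene Saa1 was at 7371 CPM. The 30 macrophage genes summed to 2643 CPM in it. Counts of called genes in NZO are therefore mostly given with and without this library. Fold changes of NZO are given without it where its removal ended a call or moved the value by over 1.5 times. Liver identity was plain in all libraries, in which 10 hepatocyte markers summed to between 30430 and 161600 CPM.

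B6 and NZO had most of these genes higher, and Cast and WSB had most of them lower. Against the mean of the other 7 strains, 26 of the 30 genes were higher in B6 and 0 were lower, where 19.4% of all tested genes were higher and 14.7% lower. In NZO, 27 were higher and 0 lower (26.7% and 19.5% of all genes). In Cast, 20 were lower and 4 higher (28.8% and 30.8% of all genes), in WSB 18 were lower and 1 higher (22.4% and 22.6%), and in PWK 11 were lower and 1 higher (22.7% and 22.5%). The other strains lay between. NOD had 4 lower and 1 higher (11.6% and 16.7%), strain-129 had 6 lower and 4 higher (10.9% and 13.7%), and AJ had 2 of each (11% lower and 13.1% higher). For the lower genes in AJ and NOD and the higher genes in strain-129, the shares lay near those over all genes.

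The summed level of the 30 genes was 619, 1054 and 1451 CPM in B6 and 499.8, 904 and 2643 CPM in NZO. In WSB it was 305, 423 and 615 CPM, in NOD 367, 465.5 and 730 CPM, in strain-129 375, 478 and 731 CPM, in Cast 317, 489 and 542 CPM, in PWK 361, 516 and 729 CPM, and in AJ 469, 540.2 and 897 CPM. The sum weights abundant genes, and by it WSB was lowest in the median while Cast lay above NOD and strain-129. All B6 libraries lay above all WSB and Cast libraries. The median log2 fold change of the 30 genes was 1.08 in B6, 1.14 in NZO, -0.01 in AJ, -0.15 in strain-129, -0.28 in NOD, -0.74 in WSB, -0.26 in PWK and -0.63 in Cast, while the median over all tested genes was within 0.02 of 0 in every strain. B6 and NZO had the pair of highest means for 24 of the 30 genes. Cast had the lowest mean for 12 genes, WSB for 10, PWK for 5 and strain-129 for 3.

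All 30 genes differed among the strains in the test over all 8, and 89.8% of all tested genes did so too. Strain accounted for 57.6% of the variance in log2 CPM in the median of the 30 genes, against 49.3% in the median of all tested genes. It was 95.5% for Folr2, 78.5% for Fcgr1 and 73.4% for Lyz2, and lowest for Mrc1 with 38.5% and Cd163 with 39.98%. In the order of each gene's strain means, 19 of 210 steps between neighbouring strains were called; neighbours in such an order are the closest pairs by construction.

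**Figure D1:**
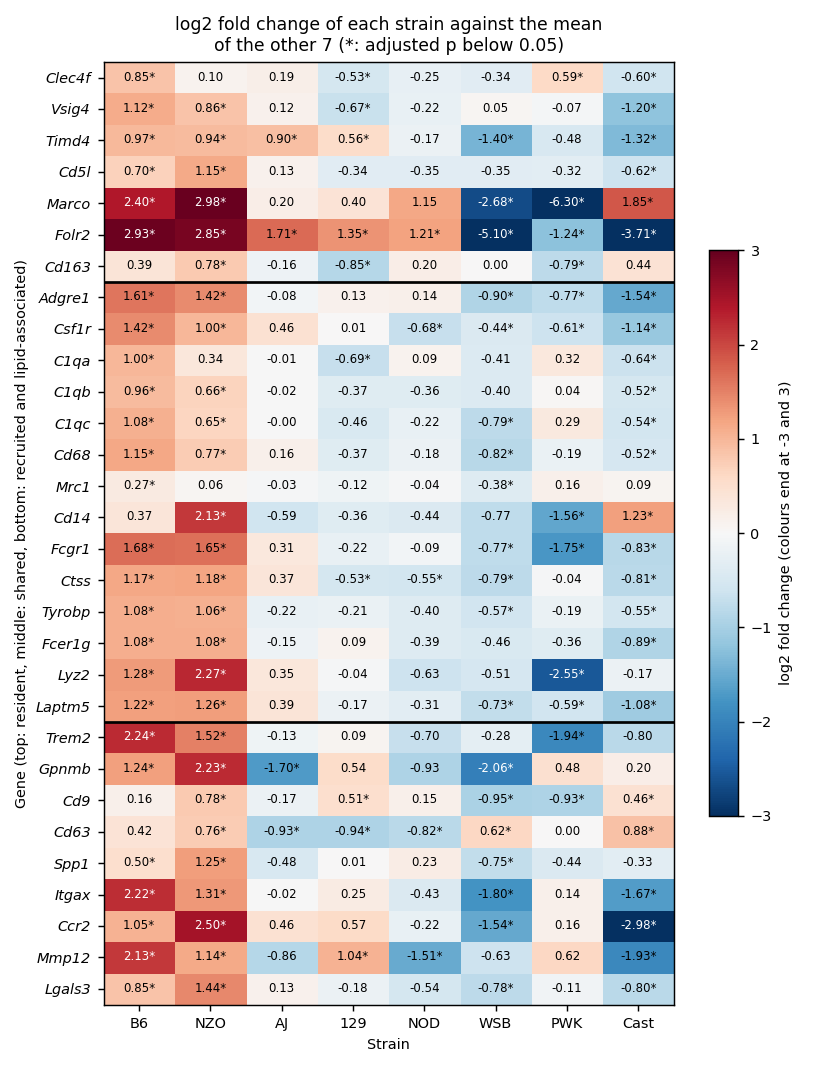
Log2 fold change of each strain against the mean of the other 7 strains (columns) for the 30 macrophage genes (rows), with resident genes on top, shared genes in the middle and recruited and lipid-associated genes below. Asterisks mark adjusted p below 0.05; B6 and NZO are red in nearly every row, with 26 and 27 genes higher, and Folr2 and Marco hold the deepest blue cells, in WSB, Cast and PWK.

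The resident Kupffer genes separated into those that all strains expressed and a pair, Folr2 and Marco, that came close to 0 in some wild-derived strains. Clec4f encodes a C-type lectin that marks Kupffer cells in the mouse. It had 83.4, 143 and 171 CPM in B6, 69.3, 104 and 160.3 CPM in PWK, 36.5, 54.5 and 76.8 CPM in strain-129, and 14.4, 65.0 and 71.9 CPM in Cast. In AJ, NZO, NOD and WSB its means were 86.4, 82.2, 66.3 and 62.7 CPM. No B6 library fell into the range of strain-129 or Cast, whereas B6 and PWK overlapped. Clec4f was higher in B6 (log2 fold change 0.85, SE 0.18, adjusted p 0.000174) and in PWK (0.59, SE 0.18, adjusted p 0.00441), and lower in strain-129 (-0.53, SE 0.19, adjusted p 0.0352) and Cast (-0.60, SE 0.21, adjusted p 0.0102). Clec4f was the only one of the 30 genes called higher in PWK. Its order of strains departed from that of its class, since NZO was not called (0.10, SE 0.18, adjusted p 0.678). The low value in Cast rested on libraries 5 and 6, with 14.4 and 20.97 CPM, and the call ended without either of them (adjusted p up to 0.0616), while the call in strain-129 ended without any of 5 single libraries.

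Vsig4 encodes a complement receptor through which Kupffer cells take up C3-coated particles, and Timd4 a receptor for phosphatidylserine on dying cells that marks long-lived resident macrophages. Vsig4 had 20.6, 40.5 and 57.6 CPM in B6, 16.6, 32.7 and 56.2 CPM in NZO, and 3.71, 9.92 and 13.6 CPM in Cast. No library of B6 or NZO overlapped with Cast. Vsig4 was higher in B6 (1.12, SE 0.18, adjusted p 1.41e-06) and NZO (0.86, SE 0.17, adjusted p 4.94e-05) and lower in Cast (-1.20, SE 0.22, adjusted p 6.35e-06) and strain-129 (-0.67, SE 0.20, adjusted p 0.00924). Timd4 had 1.41, 2.08 and 3.75 CPM in WSB and 0.988, 2.67 and 3.83 CPM in Cast, against means of 10.01 CPM in B6, 9.84 CPM in NZO, 9.59 CPM in AJ and 7.79 CPM in strain-129. Neither WSB nor Cast overlapped with those 4 strains. Timd4 was lower in WSB (-1.40, SE 0.25, adjusted p 6.99e-06) and Cast (-1.32, SE 0.26, adjusted p 2.46e-05), and the step between PWK, at a mean of 4.16 CPM, and Cast was called (adjusted p 0.0424). It was higher in B6 (0.97), NZO (0.94), AJ (0.90) and strain-129 (0.56). The call in strain-129 was lost without library 1, which had 17.0 CPM (0.29, adjusted p 0.365), and without any of 4 other libraries.

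Cd5l encodes a secreted lipid-handling protein of tissue macrophages, and Cd163 the scavenger receptor for haemoglobin bound to haptoglobin. Cd5l had 81.0, 153 and 326 CPM in NZO, 73.8, 122 and 206 CPM in B6 and 19.5, 55.0 and 92.9 CPM in Cast, and these ranges overlapped. Cd5l was higher in NZO (1.15, SE 0.18, adjusted p 3.51e-07) and B6 (0.70, SE 0.19, adjusted p 0.00369) and lower in Cast (-0.62, SE 0.22, adjusted p 0.0129). Without library 5 of Cast, the call in Cast was lost (adjusted p 0.0641). Cd163 departed from the class: its second highest mean was in Cast, with 15.6, 22.5 and 50.1 CPM, and its lowest in strain-129, with 8.2, 13.2 and 16.1 CPM, and the 2 ranges overlapped. It was lower in strain-129 (-0.85, SE 0.24, adjusted p 0.00529) and PWK (-0.79, SE 0.24, adjusted p 0.00456), and was not called in B6 (0.39, SE 0.23, adjusted p 0.185).

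Folr2 encodes a folate receptor of resident macrophages, and its strain differences were the sharpest of the set. It had 0, 0.0743 and 0.211 CPM in WSB, from 21 reads in all 8 libraries together. In Cast it had 0.0737, 0.181 and 0.421 CPM, from 46 reads, and in PWK 0.475, 0.893 and 1.39 CPM. None of these 3 strains overlapped with the other 5, whose lowest library was at 2.61 CPM in NOD, and PWK did not overlap with WSB or Cast. The means of the classical strains were 12.1 CPM in B6, 11.5 CPM in NZO, 5.72 CPM in AJ, 4.64 CPM in strain-129 and 4.21 CPM in NOD. Folr2 was lower in WSB (-5.10, SE 0.33, adjusted p 1.92e-19), Cast (-3.71, SE 0.30, adjusted p 1.01e-15) and PWK (-1.24, SE 0.23, adjusted p 8.09e-06). Because a strain near 0 lowers the mean of the others on the log scale, pairs give a plainer size: B6 exceeded WSB by 7.03 (SE 0.36, adjusted p 2.06e-23), Cast by 5.81 (SE 0.34, adjusted p 4.21e-21) and PWK by 3.65 (SE 0.28, adjusted p 1.55e-16) on the log2 scale. Of its 7 steps between neighbouring strains, 4 were called. Gm10602, a gene on the opposite strand that overlaps Folr2 by 975 bases, was between 0.0754 and 0.807 CPM in all libraries, and whether counting used strand is not given in the sources used here. The submitters' processing notes name GRCm38, the genome of B6, and the part of sequence differences of the other strains in the levels of Folr2, Marco and Lyz2 was not tested.

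Marco encodes a scavenger receptor that binds bacteria and particles. It had 0, 0.0757 and 0.247 CPM in PWK, from 22 reads, with 3 of 8 libraries at 0, and 0.194, 0.771 and 1.63 CPM in WSB. PWK overlapped with WSB alone, since the lowest library elsewhere was at 0.363 CPM in strain-129. In NZO it had 1.60, 4.87 and 142 CPM, in B6 2.77, 13.1 and 66.0 CPM, and in Cast 0.774, 3.04 and 60.6 CPM. Marco was lower in PWK (-6.30, SE 1.13, adjusted p 4.94e-06) and WSB (-2.68, SE 0.81, adjusted p 0.00585) and higher in NZO (2.98, SE 0.51, adjusted p 2.84e-06), B6 (2.40, SE 0.55, adjusted p 0.000475) and Cast (1.85, SE 0.57, adjusted p 0.00448). The value in Cast rested on 1 library: without library 6 it was 0.57 (adjusted p 0.459). That library had 60.6 CPM of Marco, 29.6 CPM of Cd14 and 3874 CPM of Saa1, and library 5 of Cast had 20.1, 19.7 and 571 CPM of the same genes. In library 3 of Cast, with 1126 CPM of Saa1, Marco was at 3.04 CPM. The part of the acute phase response in these levels was not tested.

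**Figure D2:**
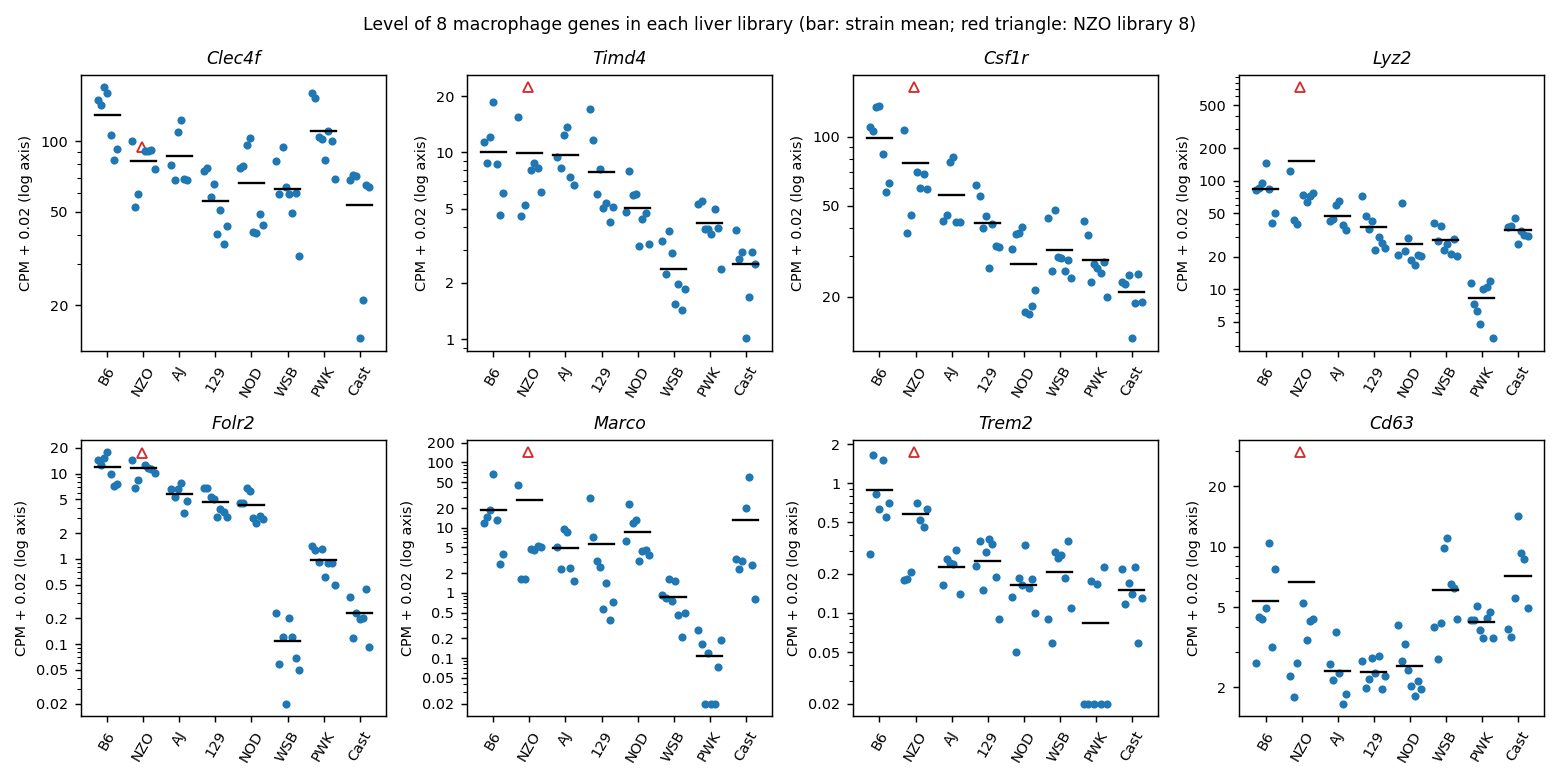
Level in CPM, with 0.02 added so that 0 can be drawn on the log axes, of 8 of the macrophage genes in each of the 60 libraries, by strain; bars are strain means and the red open triangle is library 8 of NZO. Folr2 is lowest in WSB and Cast, whose libraries overlap, higher in PWK and highest in the 5 classical strains, without overlap between these levels. Marco and Trem2 reach 0 in PWK, and Lyz2 in PWK lies below every other library. For Cd63 the triangle at 29.4 CPM is the highest point.

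The windows before the transcription starts of Vsig4, which all strains expressed, and of Marco and Folr2, which came close to 0 in some, are shown for comparison. They are RefSeq sequences of GRCm38.p6, which is the genome of B6, and the sequence of the other strains was not analysed here. Each holds the 250 bases before a transcription start, at chrX:96293439-96293688 (minus strand), chr1:120505025-120505274 (minus strand) and chr7:101845332-101845581 (minus strand), the last being 1 of 2 windows of Folr2. Capitals mark GAGGAA, the core of sites bound by PU.1, and TGAGTCA, the site of AP-1 factors, on either strand.
Vsig4: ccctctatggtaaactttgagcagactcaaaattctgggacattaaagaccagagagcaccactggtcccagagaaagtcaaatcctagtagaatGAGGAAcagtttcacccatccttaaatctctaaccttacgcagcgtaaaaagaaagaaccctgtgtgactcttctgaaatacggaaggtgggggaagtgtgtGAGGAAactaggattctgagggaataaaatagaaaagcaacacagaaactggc
Marco: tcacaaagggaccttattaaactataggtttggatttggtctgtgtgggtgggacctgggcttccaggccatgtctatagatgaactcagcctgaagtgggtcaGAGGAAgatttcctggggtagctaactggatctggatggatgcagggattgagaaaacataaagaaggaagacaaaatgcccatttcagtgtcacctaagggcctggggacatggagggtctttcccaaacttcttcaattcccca
Folr2: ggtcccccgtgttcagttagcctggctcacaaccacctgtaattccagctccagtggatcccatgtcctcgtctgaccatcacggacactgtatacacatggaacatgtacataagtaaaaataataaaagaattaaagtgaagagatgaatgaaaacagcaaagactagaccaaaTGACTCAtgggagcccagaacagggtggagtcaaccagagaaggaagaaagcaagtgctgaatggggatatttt
GAGGAA on either strand was in 14 of the 28 windows available for 25 of the 30 genes, and in 23.3% of the 32851 windows of all genes. TGAGTCA was in 4 of the 28 windows and 4.46% of all, and CACGTG, the site of the lysosomal MiT family of factors, in 0 of 28 and 6.02% of all. The motifs do not overlap each other in the windows printed, and a match to the letters describes the sequence, not a bound site.

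The 14 shared genes moved with the resident ones. Of them, 13 were higher in B6 (19.4% of all genes) and 12 in NZO (26.7%), and 0 lower in either (14.7% and 19.5%). Without library 8, 12 were higher in NZO (22.7% of all genes). In Cast 11 were lower and 1 higher (28.8% and 30.8% of all genes), in WSB 9 lower (22.4%), and in PWK 6 lower (22.7%). Csf1r encodes the receptor for the growth factors CSF1 and IL-34 on which macrophages depend, and Adgre1 the F4/80 antigen. Csf1r had 57.6, 106 and 136.5 CPM in B6, 37.9, 64.3 and 165 CPM in NZO, and 13.1, 22.8 and 25.0 CPM in Cast. No B6 library overlapped with NOD, WSB, PWK or Cast. Csf1r was higher in B6 (1.42, SE 0.17, adjusted p 4.97e-10) and NZO (1.00, SE 0.16, adjusted p 1.01e-06), and lower in Cast (-1.14, SE 0.21, adjusted p 4.4e-06), NOD (-0.68, SE 0.19, adjusted p 0.00395), PWK (-0.61, SE 0.19, adjusted p 0.00532) and WSB (-0.44, SE 0.18, adjusted p 0.043). The call in WSB was lost in 19 of 60 fits that left out 1 library. Hmgxb3 overlaps Csf1r by 873 bases on the opposite strand. Adgre1 had 3.02, 5.71 and 6.92 CPM in Cast, against means of 37.3 CPM in B6 and 33.1 CPM in NZO, and Cast did not overlap with any classical strain. It was lower in Cast (-1.54, SE 0.27, adjusted p 2.46e-06) and higher in B6 (1.61, SE 0.20, adjusted p 5.03e-09) and NZO (1.42, SE 0.20, adjusted p 3.11e-08).

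C1qa, C1qb and C1qc encode the 3 chains of complement C1q, which liver macrophages secrete, and lie within 18675 bases of each other at chr4:136880129-136898803. C1qa had 31.4, 56.8 and 70.8 CPM in B6, 18.1, 32.3 and 68.5 CPM in NZO, and 11.9, 18.5 and 29.2 CPM in strain-129. B6 did not overlap with strain-129. All 3 chains were higher in B6, by 0.96 to 1.08 on the log2 scale, and lower in Cast, with log2 fold changes of -0.64 to -0.52. NZO differed between the chains: C1qb (0.66, SE 0.17, adjusted p 0.000809) and C1qc (0.65, SE 0.17, adjusted p 0.00129) were higher, and C1qa was not called (0.34, SE 0.17, adjusted p 0.101). Without library 8, C1qb was at 0.42 (adjusted p 0.0372) and C1qc at 0.42 (adjusted p 0.0406). C1qa alone was called in strain-129 (-0.69, SE 0.19, adjusted p 0.00439) and C1qc alone in WSB (-0.79, SE 0.19, adjusted p 0.000605), but differences between the chains were not tested. With DESeq2, C1qa and C1qb were also called in WSB and C1qc in strain-129, and with Xist as a covariate C1qa was called in NZO. In Cast, the calls of C1qb and C1qc were lost without library 5, which held the lowest C1qa, 9.85 CPM, and that of C1qb also without library 6.

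Lyz2 encodes lysozyme and Cd14 the coreceptor for bacterial lipopolysaccharide, and both followed the strain pattern of the class only in part. Lyz2 had 3.5, 8.66 and 11.8 CPM in PWK, and the lowest library of any other strain, in NOD, was at 16.6 CPM. PWK therefore overlapped with no other strain. The means elsewhere ran from 26.3 CPM in NOD to 153 CPM in NZO, where library 8 held 731 CPM and the mean without it was 70.4 CPM. Lyz2 was lower in PWK (-2.55, SE 0.35, adjusted p 1.48e-08) and was not called in Cast (-0.17, SE 0.30, adjusted p 0.651), whose mean was 34.8 CPM. Lyz1, a near-identical neighbour with which Lyz2 may share reads, was at most 1.39 CPM in any library and at most 0.0358 CPM in PWK. Cd14 had 2.98, 12.7 and 64.2 CPM in NZO, 1.8, 3.5 and 29.6 CPM in Cast, and 0.787, 1.43 and 3.71 CPM in PWK, and these ranges overlapped. Cd14 was higher in NZO (2.13, SE 0.30, adjusted p 3.82e-08) and Cast (1.23, SE 0.34, adjusted p 0.00147) and lower in PWK (-1.56, SE 0.41, adjusted p 0.00141). Without library 6 of Cast, the value in Cast was 0.68 (adjusted p 0.101).

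Fcgr1 encodes the high-affinity receptor for immunoglobulin G, and Fcer1g and Tyrobp encode the adaptor chains through which such receptors and TREM2 signal. Fcgr1 had 0.272, 0.503 and 1.10 CPM in PWK, against 2.28, 5.26 and 6.10 CPM in B6 and 2.06, 4.63 and 8.53 CPM in NZO. PWK did not overlap with B6 or NZO, and the step between Cast, at a mean of 1.03 CPM, and PWK was called (adjusted p 0.0204). Fcgr1 was lower in PWK (-1.75, SE 0.24, adjusted p 1.66e-08) and higher in B6 (1.68, SE 0.18, adjusted p 6.9e-11) and NZO (1.65, SE 0.17, adjusted p 1.5e-11). The adaptors were not called in PWK (Tyrobp -0.19, adjusted p 0.458; Fcer1g -0.36, adjusted p 0.153). Both were higher in B6 and NZO, by 1.06 to 1.08, and lower in Cast (Tyrobp -0.55, adjusted p 0.0242; Fcer1g -0.89, adjusted p 0.000766). Tyrobp in Cast was lost without library 5 or library 6.

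Of the remaining shared genes, Ctss (cathepsin S), Laptm5 (a lysosomal membrane protein of blood cells) and Cd68 (a lysosomal glycoprotein) were higher in B6 and NZO, by 0.77 to 1.26, and lower in WSB and Cast, with log2 fold changes of -1.08 to -0.52. The call of Cd68 in Cast was lost without library 8 of Cast (adjusted p 0.0582), and Ctss was also lower in strain-129 (-0.53) and NOD (-0.55), calls lost without any of 8 and any of 4 single libraries. Laptm5 had 15.0, 28.2 and 38.2 CPM in B6 and 5.46, 6.93 and 10.1 CPM in Cast, with no overlap. Ctss had 27.2, 55.0 and 66.8 CPM in B6 and 9.63, 17.02 and 19.97 CPM in Cast, again with no overlap. Mrc1, the mannose receptor, which sinusoidal endothelial cells also express, varied least. Its strain means lay between 59.2 CPM in WSB and 88.2 CPM in B6, a ratio of 1.49. It was lower in WSB (-0.38, SE 0.08, adjusted p 0.000189) and higher in B6 (0.27, SE 0.08, adjusted p 0.00925). The call in B6 was lost without library 3 or 4 of B6 (adjusted p up to 0.0712).

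Of the 9 genes of recruited and lipid-associated macrophages, all 9 were higher in NZO (26.7% of all genes) and 7 in B6 (19.4%). In both strains 0 were lower (19.5% and 14.7%). The B6 calls of Ccr2, Gpnmb and Spp1 were each lost without library 6 of B6. Without library 8, 8 were higher in NZO (22.7% of all genes), and Cd63 stood at -0.21. In WSB 6 were lower and 1 higher (22.4% and 22.6% of all genes), in Cast 4 lower and 2 higher (28.8% and 30.8%), and in PWK 2 lower (22.7%). The lower count in PWK and the higher counts in WSB and Cast did not exceed the shares over all genes. Ccr2, the receptor by which monocytes follow CCL2 into tissue, had 1.57, 4.14 and 34.2 CPM in NZO, 1.40, 2.57 and 7.03 CPM in B6, 0.215, 0.690 and 0.887 CPM in WSB, and 0, 0.328 and 0.482 CPM in Cast. Cast overlapped with WSB alone. Ccr2 was higher in NZO (2.50, SE 0.27, adjusted p 3.86e-11) and B6 (1.05, SE 0.32, adjusted p 0.00859) and lower in Cast (-2.98, SE 0.48, adjusted p 4.25e-07) and WSB (-1.54, SE 0.39, adjusted p 0.00108). Without library 6 of B6 its value in B6 was 0.67 (adjusted p 0.142). Itgax encodes the integrin CD11c of dendritic cells and of macrophages in fatty tissue. It had 1.09, 3.21 and 6.73 CPM in B6, 0.111, 0.241 and 0.649 CPM in WSB, and 0.133, 0.257 and 0.659 CPM in Cast, so that B6 overlapped with neither. Itgax was higher in B6 (2.22, SE 0.26, adjusted p 9.52e-10) and NZO (1.31, SE 0.27, adjusted p 6.95e-05) and lower in WSB (-1.80, SE 0.37, adjusted p 6.79e-05) and Cast (-1.67, SE 0.39, adjusted p 0.000206).

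Trem2 encodes the lipid-sensing receptor that defines lipid-associated macrophages. Its level was low throughout, with 0.263, 0.689 and 1.62 CPM in B6, 0.161, 0.473 and 1.71 CPM in NZO, and 0, 0 and 0.207 CPM in PWK, where 5 of 8 libraries had no read and 16 reads were counted in all. B6 did not overlap with PWK. Trem2 was higher in B6 (2.24, SE 0.32, adjusted p 1.04e-07) and NZO (1.52, SE 0.32, adjusted p 9.93e-05) and lower in PWK (-1.94, SE 0.48, adjusted p 0.000692). Gpnmb, a lysosomal and cell-surface glycoprotein of foamy macrophages, had 0.580, 2.27 and 3.95 CPM in NZO, 0.234, 0.533 and 4.43 CPM in B6, and 0.025, 0.128 and 0.472 CPM in WSB. NZO did not overlap with WSB. Gpnmb was higher in NZO (2.23, SE 0.33, adjusted p 9.93e-08) and lower in WSB (-2.06, SE 0.50, adjusted p 0.000673) and AJ (-1.70, SE 0.55, adjusted p 0.0169), the AJ call being lost without library 6 or 8 of AJ. Its call in B6 (1.24, SE 0.37, adjusted p 0.00745) rested on library 6 of B6, without which it was 0.31 (adjusted p 0.59).

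Mmp12 encodes macrophage elastase. It had 0.263, 1.28 and 14.1 CPM in B6, 0.328, 1.79 and 4.48 CPM in NZO, 0.967, 1.87 and 2.57 CPM in strain-129, 0.183, 0.348 and 0.698 CPM in NOD, and 0, 0.181 and 0.838 CPM in Cast. Strain-129 did not overlap with NOD or Cast. Mmp12 was higher in B6 (2.13, SE 0.37, adjusted p 5.09e-06), NZO (1.14, SE 0.38, adjusted p 0.0111) and strain-129 (1.04, SE 0.38, adjusted p 0.0393) and lower in Cast (-1.93, SE 0.55, adjusted p 0.00205) and NOD (-1.51, SE 0.50, adjusted p 0.0166). Without library 6, B6 was at 1.10 (adjusted p 0.0271), without library 1 of NZO that call was lost (adjusted p 0.0922), and the call in strain-129 was lost without any of 6 of its libraries. Library 6 of B6 also had the highest Gpnmb (4.43 CPM), Ccr2 (7.03 CPM) and Spp1 (82.1 CPM) of its strain. The same library was highest in B6 for Itgax, Lgals3, Cd63 and Cd9, but not for Trem2.

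The windows before the starts of Trem2 and Mmp12, the lipid-associated genes with the widest spread between strains after Ccr2 and Gpnmb, are at chr17:48346151-48346400 (plus strand) and chr9:7344147-7344396 (plus strand, 1 of 2 windows of Mmp12). Capitals mark GAGGAA on either strand, as above.
Trem2: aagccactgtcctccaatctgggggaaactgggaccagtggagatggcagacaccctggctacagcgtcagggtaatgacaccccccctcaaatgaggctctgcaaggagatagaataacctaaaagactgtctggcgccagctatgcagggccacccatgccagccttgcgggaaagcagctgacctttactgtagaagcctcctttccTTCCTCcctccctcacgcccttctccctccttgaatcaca
Mmp12: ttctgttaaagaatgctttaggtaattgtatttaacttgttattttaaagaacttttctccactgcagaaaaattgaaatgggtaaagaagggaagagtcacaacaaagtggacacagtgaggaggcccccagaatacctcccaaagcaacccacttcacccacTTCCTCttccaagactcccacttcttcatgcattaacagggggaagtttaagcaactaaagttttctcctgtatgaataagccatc

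Spp1 encodes osteopontin, which bile duct cells also secrete. It had 21.0, 59.4 and 147 CPM in NZO, 25.6, 33.2 and 82.1 CPM in B6 and 14.1, 19.7 and 22.9 CPM in WSB, and B6 did not overlap with WSB. Spp1 was higher in NZO (1.25, SE 0.17, adjusted p 9.34e-09) and B6 (0.50, SE 0.19, adjusted p 0.0329) and lower in WSB (-0.75, SE 0.20, adjusted p 0.00152). The call in B6 was lost without library 4, 6 or 8 (0.21, adjusted p 0.433, without library 6). The cholangiocyte markers, of which Spp1 is 1 of 9 tested, summed to 54.3, 100.7 and 178 CPM in NZO. In the other strains the medians of this sum were 53.1 to 77.4 CPM. The sums include Spp1 itself, at 59.4 CPM in the median and 147 CPM in the highest library of NZO. Of the 9 markers 2, Spp1 among them, were higher in NZO and 1 lower. The part of bile duct cells in the level of Spp1 was not tested. Lgals3, or galectin-3, had 2.55, 6.27 and 26.8 CPM in NZO, 3.30, 5.45 and 9.48 CPM in B6 and 1.94, 2.23 and 2.40 CPM in WSB, and neither NZO nor B6 overlapped with WSB. Lgals3 was higher in NZO (1.44, SE 0.19, adjusted p 4.6e-09) and B6 (0.85, SE 0.21, adjusted p 0.000879) and lower in Cast (-0.80, SE 0.24, adjusted p 0.00346) and WSB (-0.78, SE 0.23, adjusted p 0.00373).

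Cd9 and Cd63, tetraspanins of endosomes and the cell surface that many cell types express, broke with the class. Cd9 had 5.71, 8.70 and 11.9 CPM in WSB and 4.91, 8.42 and 13.04 CPM in PWK, against 12.6, 21.0 and 29.5 CPM in strain-129 and 10.8, 22.03 and 26.8 CPM in Cast. WSB did not overlap with strain-129. It was lower in WSB (-0.95, SE 0.20, adjusted p 7.22e-05) and PWK (-0.93, SE 0.20, adjusted p 7.22e-05), and higher in NZO (0.78, SE 0.17, adjusted p 0.000128), strain-129 (0.51, SE 0.17, adjusted p 0.0248) and Cast (0.46, SE 0.18, adjusted p 0.0256). The calls in strain-129 and Cast were each lost without any of 3 single libraries. With all libraries, library 8 of NZO among them, Cd63 was the only one of the 30 genes with its highest mean in Cast. Cd63 had 3.54, 5.52 and 14.2 CPM there, 2.76, 5.27 and 10.98 CPM in WSB, and 1.93, 2.30 and 2.83 CPM in strain-129. No Cast library overlapped with strain-129. Cd63 was higher in Cast (0.88, SE 0.26, adjusted p 0.00368) and WSB (0.62, SE 0.26, adjusted p 0.0454) and lower in strain-129 (-0.94, SE 0.30, adjusted p 0.0149), AJ (-0.93, SE 0.34, adjusted p 0.0362) and NOD (-0.82, SE 0.29, adjusted p 0.0296). The call in Cast was lost without library 5, that in WSB without any of 8 libraries, that in AJ without any of 5 and that in NOD without any of 4.

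Per kilobase of exon, the levels in B6 spanned a wide range. Lyz2 was at 63.8 CPM per kilobase, Cd5l at 63.5, Clec4f at 52.4 and C1qa at 50.1. Gpnmb at 0.179 and Trem2 at 0.174 CPM per kilobase were the lowest of the 30, whereas Spp1 was at 24.2 and Cd9 at 8.32 CPM per kilobase. The length was that of the merged exons of all annotated transcripts of a gene, 6.514 kilobases for Gpnmb and 4.946 for Trem2. These levels and their order depend on it.

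Leaving library 8 out of NZO reduced most of its fold changes and turned 1 of them round. NZO then had 25 of the 30 genes higher and 0 lower (22.7% and 20.3% of all genes), with a median log2 fold change of 0.90. Cd63, at 29.4 CPM in that library, had a mean of 3.41 CPM in the other NZO libraries and stood at -0.21 (SE 0.21, adjusted p 0.439), against 0.76 (SE 0.25, adjusted p 0.011) with all 8. Cd163, at 92.7 CPM in it, was no longer called (0.35, SE 0.20, adjusted p 0.156, against 0.78, SE 0.21, adjusted p 0.00143). Marco stood at 1.52 (SE 0.54, adjusted p 0.0191), Lyz2 at 1.14 (SE 0.19, adjusted p 1.46e-06), Ccr2 at 1.41 (SE 0.24, adjusted p 3.66e-06) and Cd14 at 1.40 (SE 0.30, adjusted p 0.000139). Tyrobp (0.68, adjusted p 0.000749), Fcer1g (0.65, adjusted p 0.00134), Trem2 (1.01, adjusted p 0.0119), Lgals3 (0.89, adjusted p 1.18e-05), C1qb (0.42, adjusted p 0.0372) and C1qc (0.42, adjusted p 0.0406) also moved by more than 1.5 times and were called in both fits. Folr2 (2.73, SE 0.17, adjusted p 2.65e-20), Fcgr1 (1.45, SE 0.18, adjusted p 1.9e-09), Adgre1 (1.19, SE 0.20, adjusted p 3.6e-06) and Gpnmb (2.04, SE 0.35, adjusted p 2.97e-06) moved less. With that library left out, B6 had 27 of the genes higher and 0 lower (20.1% and 16% of all genes), Cast 20 lower and 5 higher (28.1% and 32.7%), WSB 18 lower and 1 higher (22.3% and 23.8%), and PWK 11 lower and 1 higher (22.5% and 23.8%).

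**Figure D3:**
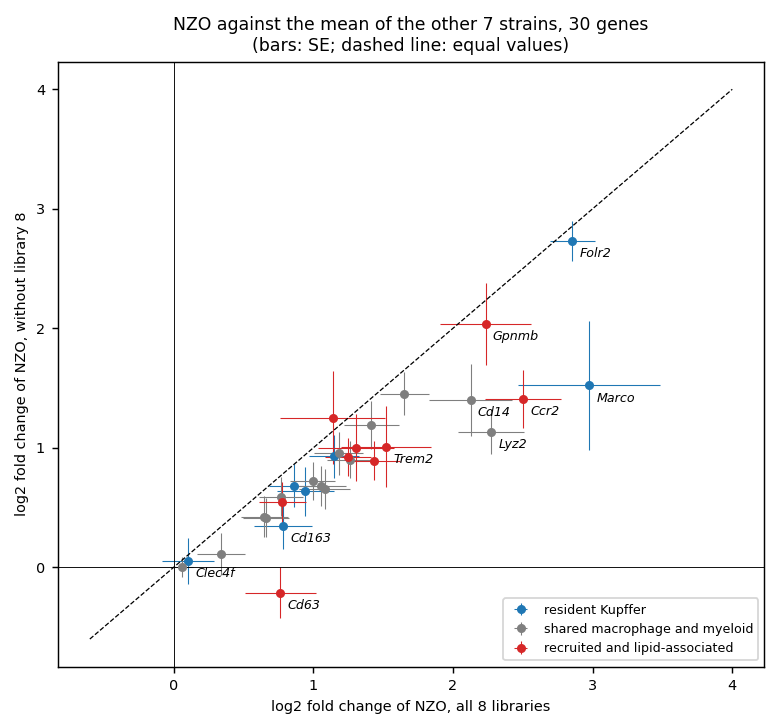
Log2 fold change of NZO against the mean of the other 7 strains for the 30 genes, with all 8 NZO libraries (horizontal) and without library 8 (vertical); bars are SE, the dashed line marks equal values and colours mark the 3 classes. Nearly all points lie under the line, Marco, Lyz2 and Ccr2 well under it, and Cd63 crosses 0, with 0.76 in all libraries and -0.21 without library 8.

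Between the high strains, B6 and NZO differed in few of the genes. With all libraries, 0 of 30 were higher in B6 than in NZO (10.4% of all genes) and 2 were lower (11.5%): Cd14 (-1.54, SE 0.49, adjusted p 0.0175) and Ccr2 (-1.28, SE 0.44, adjusted p 0.0313). Without library 8 of NZO neither was called, 4 were higher in B6 (11% of all genes), and 0 were lower (10.3%). These 4 were Itgax (1.09), C1qa (0.80), Clec4f (0.70) and Csf1r (0.64). Against the low strains, B6 had 27 genes higher and 0 lower than WSB (23.3% and 20.9% of all genes), 25 higher and 0 lower than PWK (23% and 20.1%) and 23 higher and 0 lower than Cast (28.9% and 28.2%). NZO had 28 higher than WSB (26.9%), 24 higher than PWK (27.2%) and 24 higher than Cast (30.5%), and 0 lower than any of the 3 (22.9%, 23% and 28.4%). Without library 8, NZO had 24 higher and 1 lower than WSB (24.6% and 24.4%), 22 higher and 0 lower than PWK (24.1% and 24.4%), and 23 higher and 1 lower than Cast (27.9% and 30.5%). The lower gene was Cd63 in both cases (-0.85, SE 0.27, adjusted p 0.00719 against WSB; -1.09, SE 0.28, adjusted p 0.000621 against Cast). These pairs share their B6 or NZO libraries.

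Within strains, the macrophage genes varied together from library to library. Only strain means were taken off, so the split of each strain into libraries with high and with low Xist, given below, remained. The part of this split in the correlations was not tested. After strain means were taken off, Clec4f and Vsig4 correlated over the 60 libraries with Pearson's r of 0.92 and Spearman's rho of 0.926, C1qa and C1qb with 0.983 and 0.983, Adgre1 and Csf1r with 0.936 and 0.928, and Clec4f and Timd4 with 0.78 and 0.839. Each of these relations was positive within all 8 strains, each had a p of 1e-05, the smallest that 100000 permutations within strains can give, and an adjusted p of 2e-05 over 8 pairs of genes, and without the 2 libraries farthest from the median r was 0.917, 0.979, 0.937 and 0.774. The r of Trem2 with Clec4f was 0.01 (adjusted p 0.967; rho 0.0118, adjusted p 0.983; 0.0609 without 2 libraries). With Spp1 it was 0.481 (adjusted p 0.00262; rho 0.372, adjusted p 0.0175), positive within 6 strains, and 0.341 without 2 libraries. With Gpnmb it was 0.326 (adjusted p 0.0265; rho 0.284, adjusted p 0.0564), positive within 5 strains, and 0.233 without 2 libraries. Without library 8 of NZO the r of Trem2 with Gpnmb was 0.283 (adjusted p 0.0568). The relation of Spp1 with the bile duct gene Epcam did not pass the threshold (r -0.18, adjusted p 0.361; rho -0.00, adjusted p 0.983; 0.0717 without 2 libraries).

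Over all pairs of the 30 genes, the median r was 0.799 among shared genes, 0.702 between resident and shared genes, 0.577 among resident genes, 0.492 among recruited and lipid-associated genes, 0.379 between these and the shared genes, and 0.233 between these and the resident genes. The genes share libraries, depth and the split by Xist, so these are descriptions without a test. With Csf1r, the r was 0.956 for C1qa and 0.887 for Cd5l, and 0.12 for Trem2, 0.102 for Gpnmb and 0.172 for Spp1. For Marco it was 0.783 with Cd14 and 0.22 with Clec4f. The median r among shared genes was 0.789 without library 8 of NZO, and that between the resident and the recruited and lipid-associated genes 0.195.

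**Figure D4:**
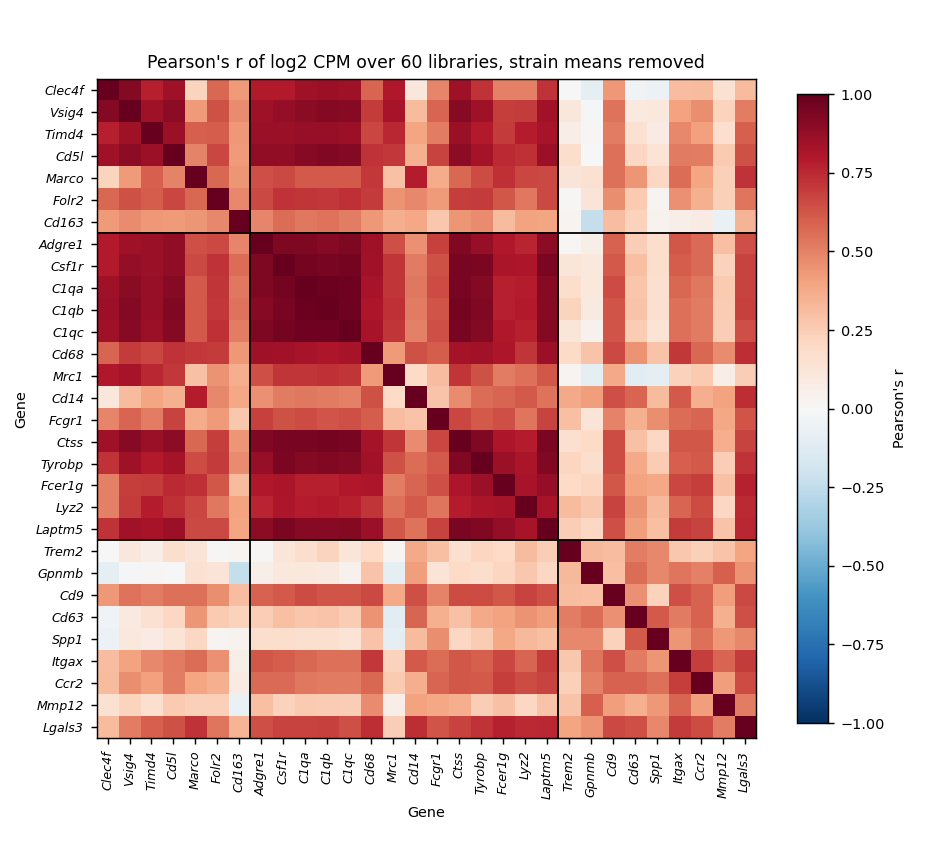
Pearson's r of log2 CPM between the 30 genes over 60 libraries after removal of strain means; black lines part the resident, shared and recruited or lipid-associated genes. The shared block in the centre is the darkest red, with a median of 0.799, while Trem2, Gpnmb, Cd63, Spp1 and Mmp12 are pale against the resident genes.

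Many of the genes also varied with Xist, whose RNA silences 1 of 2 X chromosomes. Xist was between 646 and 1421 CPM in 31 libraries (median 1068) and between 0.193 and 8.9 CPM in 29 (median 1.82). With log2 CPM of Xist as a term beside strain, 18 of the 30 genes rose with Xist and 0 fell, where 16.8% of all genes rose and 18.5% fell. The slope was 0.07 log2 units per log2 unit of Xist for Vsig4 (SE 0.01, adjusted p 9.57e-06), 0.07 for Clec4f (SE 0.01, adjusted p 1.91e-05) and 0.06 for C1qa (SE 0.01, adjusted p 0.000219). Between the median Xist levels of the 31 and the 29 libraries this is a fitted difference of 0.59 for Vsig4, 0.56 for Clec4f and 0.49 for C1qa on the log2 scale, similar in size to some of the called strain differences of these genes. With Xist as a term, B6 had 26 genes higher and 0 lower, NZO 28 higher and 0 lower, WSB 0 higher and 18 lower, PWK 2 higher and 12 lower, and Cast 4 higher and 20 lower. The shares of all genes called in each strain were not taken for this fit, so these counts stand without them. The 18 genes that rose with Xist included 5 of the 7 resident and 11 of the 14 shared genes but 2 of the 9 recruited and lipid-associated ones, Cd9 and Itgax. For Trem2 the slope was -0.02 (adjusted p 0.59) and for Spp1 -0.02 (adjusted p 0.263).

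The lists that follow hold other genes of the same cells and pathways, and their counts are to be read against the shares of all genes given above, which were 19.4% higher and 14.7% lower in B6, 26.7% and 19.5% in NZO, 22.6% and 22.4% in WSB, 22.5% and 22.7% in PWK, and 30.8% and 28.8% in Cast. Of 20 other Kupffer cell genes tested, 14 were higher in B6 and 0 lower, 7 higher and 3 lower in NZO (6 and 2 without library 8), 10 lower and 4 higher in Cast, 9 lower and 1 higher in PWK, and 8 lower and 4 higher in WSB. The counts in NZO lay near the shares over all genes. Kcna2, a potassium channel gene, was at 7.52 ± 2.18 CPM in B6 (SD, n = 7), but at 0.163 ± 0.18 CPM in NZO (SD, n = 8) and 0.0858 ± 0.0728 CPM in Cast (SD, n = 7). It was higher in B6 (3.33, SE 0.21, adjusted p 8.19e-20) and lower in Cast (-4.03, SE 0.42, adjusted p 3.64e-12) and NZO (-2.97, SE 0.35, adjusted p 3.93e-10; -3.64, SE 0.36, adjusted p 3.2e-12 without library 8). Cd207, or langerin, was at 0.288 ± 0.503 CPM in NZO and was lower there (-4.13, SE 0.42, adjusted p 6.69e-12), whereas without library 8 NZO was at 0.112 ± 0.0873 CPM (SD, n = 7; -5.45, SE 0.42, adjusted p 5.36e-16). Fcna, a ficolin gene (1.22), and Axl, a receptor for dying cells (1.15), were higher in B6, and Siglec1, or CD169, was lower in WSB (-0.88, adjusted p 0.000461).

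Of 15 macrophage transcription factors, 7 were higher in B6 and 7 in NZO, with or without library 8, with 0 lower in either, and 9 were lower and 2 higher in Cast. Spi1, which encodes PU.1, was at 9.31 ± 7.50 CPM in NZO (SD, n = 8), 6.99 ± 2.37 CPM in B6 (SD, n = 7) and 1.91 ± 0.531 CPM in WSB (SD, n = 8). Without library 8, NZO was at 6.83 ± 2.85 CPM (SD, n = 7). Spi1 was higher in NZO (1.41, SE 0.19, adjusted p 1.84e-08; 0.95, SE 0.18, adjusted p 2.51e-05 without library 8) and B6 (0.94, SE 0.21, adjusted p 0.000393) and lower in WSB (-1.19, SE 0.24, adjusted p 6.64e-05). Irf5, a factor of inflammatory macrophages, was higher in WSB (14.9 ± 6.20 CPM; 1.51, adjusted p 5.28e-10) and B6 (9.25 ± 1.84 CPM; 0.72, adjusted p 0.004) and lower in Cast (1.58 ± 0.541 CPM; -2.19, adjusted p 3.88e-10) and PWK (2.73 ± 0.639 CPM; -1.29, adjusted p 4.77e-06).

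Of 15 genes of myeloid receptor signalling, 12 were higher in B6 and 14 in NZO (12 without library 8), with 0 and 1 lower, while 11 were lower in WSB and 8 in Cast, with 0 higher. Among them Fcgr4, an immunoglobulin receptor, was higher in B6 (1.98) and NZO (1.86) and lower in WSB (-1.73). Of 15 recruited monocyte genes, 13 were higher in NZO, 10 without library 8. In B6 5 were higher, 10 once library 8 of NZO was left out, and in WSB 7 were lower. Ccl9 went the other way, lower in B6 (-0.62, adjusted p 0.0367) and higher in WSB (0.75, adjusted p 0.0016). Cx3cr1, the fractalkine receptor, was higher in NZO (2.28 ± 0.466 CPM; 2.04, adjusted p 2.36e-11) and lower in Cast (0.104 ± 0.0980 CPM; -3.02, adjusted p 1.64e-09) and WSB (0.266 ± 0.241 CPM; -1.45, adjusted p 0.00012). Of 9 growth factors and chemokines that act on these cells, 8 were higher in B6 and 6 in NZO (5 without library 8), and 6 were lower in Cast, among them the CSF1R ligand genes Csf1 (-0.72, adjusted p 9.1e-05) and Il34 (-0.67, adjusted p 0.000307). Ccl2, the ligand of CCR2, was higher in B6 (2.26 ± 1.33 CPM; 1.98, adjusted p 3.84e-06). With all libraries, Ccl2 was also higher in NZO (0.97, adjusted p 0.0186) and was lower in PWK (-1.25, adjusted p 0.0156).

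Of 19 other genes of lipid-associated macrophages tested, some of which hepatocytes also express, 8 were higher and 2 lower in NZO (6 and 2 without library 8), 6 higher and 2 lower in B6, 8 lower and 2 higher in PWK, 7 lower and 3 higher in Cast, and 6 lower and 2 higher in WSB. The lower counts in WSB and Cast lay near the shares over all genes, as did the higher count in NZO without library 8 (22.7% of all genes). Clec7a, or dectin-1, was higher in NZO (11.1 ± 4.04 CPM; 2.21, adjusted p 3.7e-15) and B6 (9.90 ± 3.97 CPM; 2.03, adjusted p 1.05e-12) and lower in Cast (0.964 ± 0.384 CPM; -1.80, adjusted p 1.62e-07). Anxa5, or annexin A5, was higher in NZO (1.35) and B6 (1.19) and lower in WSB (-1.65).

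Markers of other cells also differed between strains. Of 14 lymphocyte markers, 13 were higher in B6 and 10 in NZO (8 without library 8), with 0 and 1 lower. In Cast 10 were lower, and in WSB 7 were lower while Cd4 was higher (1.67, adjusted p 0.000742). The markers summed to 6.29, 7.71 and 11.1 CPM in B6 and 2.69, 6.27 and 17.1 CPM in NZO. The sums were 1.80, 5.24 and 10.3 CPM in WSB and 0.479, 2.35 and 10.7 CPM in Cast. Cd4 weighed on the sums in WSB and Cast, with means of 4.46 CPM and 2.64 CPM. No other marker had a mean above 0.1821 CPM in WSB or 0.2094 CPM in Cast, and Nkg7 had no read in any Cast library. Of 10 dendritic cell markers, 6 were higher in B6 and 7 lower in Cast, where Clec9a was higher (0.51, adjusted p 0.000305). Of 10 sinusoidal endothelial markers, 8 were lower in Cast and 5 in NZO. Lyve1 went the other way and was higher in Cast (1.75, adjusted p 1.75e-14) and NZO (0.77, adjusted p 6.91e-05). The sums were 271, 411 and 472 CPM in Cast and 420.1, 465.5 and 514.5 CPM in NZO. Medians in the other strains were 560.5 to 592 CPM. In B6, 1 of these markers was higher and 0 lower. Of the 7 neutrophil markers tested, all 7 were higher in NZO, and 4 without library 8. The part of these cells in the levels of genes they share with macrophages was not tested.

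**Figure D5:**
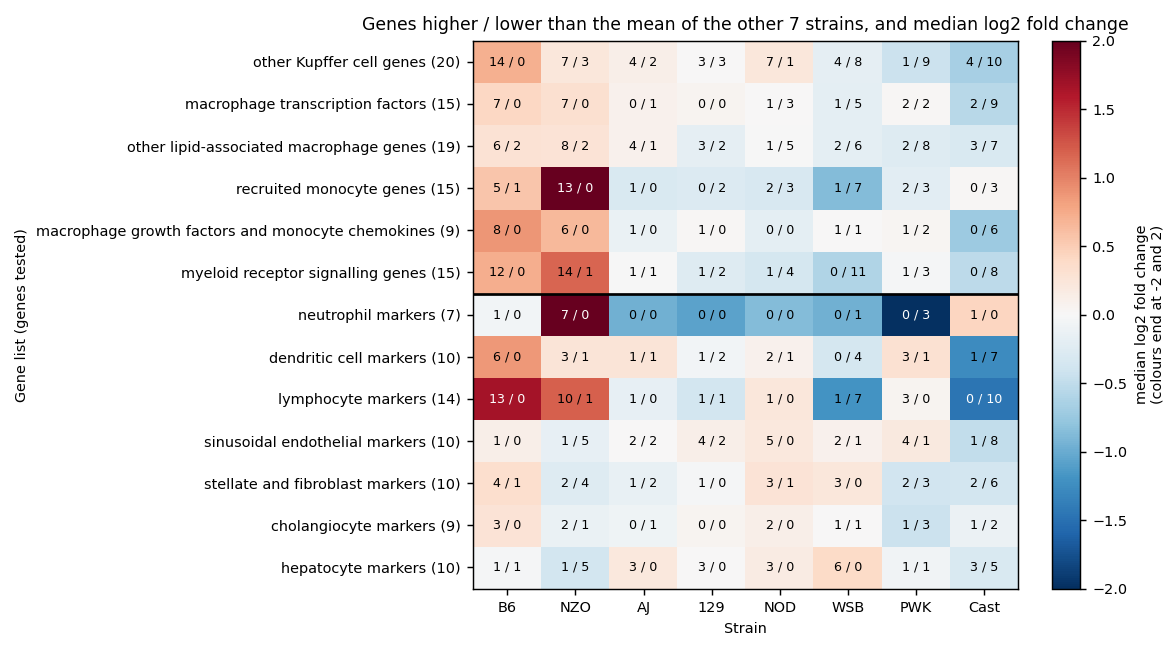
For 6 lists of macrophage genes (above the line) and 7 lists of markers of other liver cells (below it), the number of genes higher and lower in each strain than the mean of the other 7, with colour for the median log2 fold change; the number of genes tested stands beside each list. B6 and NZO are red for all 6 macrophage lists, Cast is blue for sinusoidal markers as well as for most macrophage lists, and the neutrophil list in NZO, 7 higher, counted 4 without library 8.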

How the data were processed

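One deposited table gives raw estimated counts for each gene, and a second deposited table holds log2 values after variance stabilisation by the authors; the submitters' processing notes name GRCm38 and DESeq2. Per the labels' protocols, total RNA came from pulverised frozen liver, synthetic ERCC RNA was added, and polyadenylated RNA was sequenced. Aligner, counter, annotation and strand setting: not given in the sources used here. GRCm38 is the genome of B6; whether reads of other strains were aligned to it alone is not given, and its part in the levels was not tested.

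Of the estimated counts, 21% were not whole; although whole counts had been planned for, they were rounded and tested with edgeR 4.0.16 (R 4.3.3): filterByExpr by strain, TMM, the quasi-likelihood F test and Benjamini-Hochberg adjustment over all 16165 genes tested, in one fit over all 60 libraries, checked on simulated data first. Of 61 labelled samples 1 has no column, and 1 column per table that matched no sample was not used. Log2 CPM used a prior count of 2. The strain labelled 129 is called strain-129. Alternatives used limma 3.58.1 and DESeq2 1.42.0. The members and gene lists were chosen with earlier results of these data known. Genes named with values were, per class and strain, up to 4 called members with the largest fold change and members whose strain order departed from their class, and from other lists up to 4 called genes by smallest p; others, such as Saa1, Lyz1, Gm10602 and Epcam, were chosen after their values were seen. Correlations used strain-centred log2 CPM and 100000 permutations within strains. Depth, 19.98 to 69.2 M reads per library, limits low genes such as Trem2.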

Additional observations from a re-analysis of the deposited data

Results flagged for a closer look

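In 10 of 240 groups, each the libraries of 1 strain for 1 of the 30 genes, 1 library lay far from the others of its strain by Dixon's criterion, and chance flags about 1 in 20 groups. Library 8 of NZO was the high one for 4 genes, with 731 CPM of Lyz2, 92.7 CPM of Cd163, 34.2 CPM of Ccr2 and 29.4 CPM of Cd63. Spp1 was high in library 6 of B6 (82.1 CPM) and library 7 of strain-129 (44.8 CPM) and low in library 1 of Cast (10.6 CPM). Lyz2 was high in library 2 of NOD (61.8 CPM), Cd163 low in library 9 of WSB (6.28 CPM) and C1qa low in library 5 of Cast (9.85 CPM).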

How the results depend on the processing

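Leaving out each library in turn, all 30 genes differed among strains (30 to 30), B6 had 23 to 27 of them higher and 0 to 0 lower, NZO 25 to 28 higher and 0 to 0 lower, AJ 2 to 3 higher and 0 to 2 lower, strain-129 1 to 5 higher and 4 to 8 lower, NOD 1 to 2 higher and 2 to 5 lower, WSB 0 to 1 higher and 17 to 21 lower, PWK 1 to 1 higher and 11 to 12 lower, and Cast 2 to 5 higher and 15 to 20 lower. Calls over all pairs of strains numbered 441 (422 to 454), those in the other macrophage lists 312 (297 to 330) and those in lists of other cells 221. With limma on the deposited log2 values, AJ had 1 lower, WSB 0 higher and Cast 2 higher; with Xist as a covariate, AJ had 1 lower, WSB 0 higher and PWK 2 higher; the causes were not tested. With the replicate number as a block, AJ had 0 lower, WSB 0 higher and PWK 3 higher, B6 25 higher, NZO 27 higher and the pairs 426 calls; of 181 same-numbered pairs, 131 correlated over 0.1 (median 0.201, lowest -0.429, against a median of -0.0699 for pairs with different numbers), but not all did and 7 of 60 libraries correlated best with their own number, so the numbers are not taken as a pairing. In B6, NZO, AJ, strain-129, NOD and Cast, the lower-numbered libraries were those with high Xist. The part of Xist in the correlations of same-numbered pairs was not tested. Cd63 in NZO ranged from -0.21 (without library 8) to 0.91 over single libraries left out. With limma the calls of Gpnmb and Spp1 in B6, Mmp12 and Cd63 in NZO, Cd63 in AJ and WSB, Timd4 in strain-129, and Marco and Cd14 in Cast were lost. The correlation of Trem2 with Gpnmb was 0.237 with a prior count of 0.5 (adjusted p 0.0906) and 0.283 without library 8 of NZO (adjusted p 0.0568). Other size factors, no filter on low counts, and counts without Rn18s-rs5 and mitochondrial genes changed no call of the 30 genes in any strain. Trem2, Mmp12 and Gpnmb are limited by their few reads, and Folr2 and Marco so in strains near 0.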
